A study of Mus musculus with 12 samples.

Results

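The nuclear genes of the mitochondrial respiratory chain were examined in hippocampal mRNA of 12 male mice aged 3 to 5 months. They were chosen by name: every row whose symbol begins with Nduf followed by a, b, c, s or v, with Uqcr, with Cox4 to Cox8 or with Atp5, or is Sdha, Sdhb, Sdhc or Sdhd, with a mean expected count of at least 50 over the 12 libraries. Of 22236 rows in the table, 92 matched and 88 reached that mean. The 88 genes hold 36 subunits of complex I, 7 of its assembly factors, 4 subunits of complex II, 8 of complex III, 16 genes of complex IV, 15 of complex V and 2 genes named for similarity to ATP synthase, Atp5s and Atp5sl. All 88 passed the filter on low counts and were tested among 15853 genes. Close to the minimum stood tissue isoforms of complex IV and a complex IV-related paralog: Cox8b (mean count 51.5), Cox6a2 (58.3), Ndufa4l2 (58.5) and Cox6b2 (83.7) were inside, and Cox7a1 (34.6), Cox4i2 (29.3), Cox7b2 (6.75) and Cox8c (0.0) were outside.

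C57BL/6J (B6) and DBA/2J (D2) are inbred strains. Mice of each received bilateral injections of adeno-associated virus, AAV9, into the hippocampus. In KD mice it expressed a short hairpin RNA targeting Hp1bp3, in Ctrl mice a scrambled hairpin, and tissue was taken at least 6 weeks later. Hp1bp3 encodes a chromatin protein related to linker histones. Each of the 4 groups (B6 Ctrl, B6 KD, D2 Ctrl and D2 KD) held 3 mice with 1 library each, and every mouse, Ctrl mice included, had been injected with virus. Whole hippocampus was sequenced, so transduced and untransduced cells were measured together. In such bulk RNA, fewer cells of a type and less RNA per cell cannot be told apart.

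The respiratory chain sits in the inner mitochondrial membrane. Complex I (NADH dehydrogenase) and complex II (succinate dehydrogenase) pass electrons to ubiquinone, complex III passes them to cytochrome c, and complex IV passes them to oxygen. Complexes I, III and IV pump protons, and complex V (ATP synthase) uses the gradient to make ATP. Most subunits are encoded in the nucleus, and a few core subunits in mitochondrial DNA; none of the 13 protein genes of mitochondrial DNA was analysed here. Neurons depend heavily on this pathway to pay for ion pumping and synaptic transmission.

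The libraries held 18.2 M to 39.4 M expected counts each. Hp1bp3 stood at 294 to 310 CPM (counts scaled to a common library size with TMM factors) in B6 Ctrl and 182 to 259 in B6 KD, a log2 fold change of -0.54 ± 0.15 (SE; adjusted p = 0.076, edgeR). In D2 it stood at 215 to 234 in Ctrl and 163 to 230 in KD, with a log2 fold change of -0.25 ± 0.15 and adjusted p = 1.0. The library labelled D2 KD 3, at 230 CPM, lay inside the Ctrl range of its strain. B6 KD 3, at 259, had the highest level of the B6 KD libraries. Summed CPM of 12 choroid plexus markers was 2881 to 5436 in 7 libraries (B6 Ctrl 2, B6 KD 2 and 3, D2 Ctrl 2 and 3, and the libraries labelled D2 KD 1 and 3) and 78.4 to 210.4 in the other 5. All 10 neuronal markers were measured, at a summed 9208 to 12415 CPM.

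Sequences of genes that have near-identical copies are shown first, since a short read from such a stretch can be assigned to more than 1 place. Ndufs5 encodes an intermembrane-space subunit of complex I and lies at chr4:123712710-123718202 on the minus strand (GENCODE M21, GRCm38). The processed pseudogene BC002163 lies at chr16:42955631-42955949. Over the 318 coding bases of Ndufs5 the pair differed at 2 positions, an identity of 99.4%, and the longest identical run was 213 bases, against a read length of 75. The first 120 coding bases follow, with the differing bases in capitals.
Ndufs5: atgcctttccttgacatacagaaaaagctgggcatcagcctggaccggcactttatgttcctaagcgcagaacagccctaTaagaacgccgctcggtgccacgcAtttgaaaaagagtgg
BC002163: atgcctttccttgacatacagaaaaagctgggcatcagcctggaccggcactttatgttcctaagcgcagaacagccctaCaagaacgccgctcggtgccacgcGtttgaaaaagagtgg

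Ndufb4, a membrane-arm subunit of complex I at chr16:37647170-37654453, had a processed pseudogene, Ndufb4c at chr15:73809507-73809896, that was identical over all 387 coding bases. Of the 75-base windows of the longest Ndufb4 transcript, 35.2% also occurred in another gene. Ndufb4c was not analysed here. The first 120 bases, which no letter tells apart between the gene and the copy, read as follows.
Ndufb4: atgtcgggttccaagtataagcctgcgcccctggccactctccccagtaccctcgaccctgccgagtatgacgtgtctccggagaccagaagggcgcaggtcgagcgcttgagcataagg

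Atp5g1, Atp5g2 and Atp5g3 encode the same mature c subunit of the ATP synthase rotor behind different import sequences. Their last 75 codons differed at many bases: Atp5g2 was 84.9% identical to Atp5g1 and 78.7% identical to Atp5g3 over 225 bases. The longest run that Atp5g2 shared with either was 20 bases, so reads of 75 bases could separate the 3 genes in this part. The first 90 bases of the stretch are shown with positions that differ between any of the genes in capitals.
Atp5g1: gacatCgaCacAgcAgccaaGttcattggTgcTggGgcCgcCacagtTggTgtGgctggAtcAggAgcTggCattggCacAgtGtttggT
Atp5g2: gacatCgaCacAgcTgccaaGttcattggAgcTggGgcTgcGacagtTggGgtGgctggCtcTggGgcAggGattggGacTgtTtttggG
Atp5g3: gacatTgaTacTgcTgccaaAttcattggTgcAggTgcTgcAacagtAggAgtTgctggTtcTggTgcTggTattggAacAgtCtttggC

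Many genes of the chain carry sites for nuclear respiratory factor 1 (NRF1), a transcription factor known for its role at genes of mitochondrial proteins. RefSeq promoters (GRCm38.p6) were found for 71 of the 88 genes. In the 250 bases before the start, 14 of the 71 (19.7%) held the letters GCGCANGCG on either strand, against 5.33% of 27025 promoters. The letters CCGGAAG, bound by ETS factors such as GABPA, occurred in 12 of 71 (16.9%), against 7.05% of all promoters. The letters AAGATGGCG, bound by YY1, were in none of the 71 windows and in 0.607% of all, TCAAGGTCA, bound by estrogen-related receptors, in 1 of 71 (1.41%) against 0.366%, and GGGCGG, bound by SP and KLF factors, in 27 of 71 (38.03%) against 32.9%. Median GC content of the windows was 57.2% for the genes of the chain and 52.0% for all promoters. Stretches from 4 promoters are shown, with the GCGCANGCG match in capitals, for genes whose values are described later; Cox6a1 and Sdha are genes that edgeR called in no comparison.
Atp5g2, chr15:102671072-102671098, minus strand: gctccggccGCGCATGCGcagagcctt
Ndufb4, chr16:37654373-37654399, minus strand: ctcatatccGCGCAGGCGcagatgtgc
Cox6a1, chr5:115349058-115349084, minus strand: ggataaagtGCGCAGGCGctggagttc
Sdha, chr13:74350278-74350304, minus strand: gggcgtgttGCGCAGGCGcagaatctt

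The 88 genes together took 0.957% of the counts. Per kilobase of the GENCODE principal transcript, the highest mean level over the 12 libraries was that of Atp5b, the catalytic beta subunit of complex V, at 547 CPM per kb, followed by Cox8a (438), Cox4i1 (389) and Atp5a1 (334). The lowest was Ndufa4l2, at 2.03 CPM per kb. Replicates were close: the median coefficient of variation over the 88 genes was 4.44% (Ctrl) and 9.37% (KD) in B6, and 6.49% (Ctrl) and 4.90% (KD) in D2. For all 13580 genes with a mean count of at least 50 the medians were 8.01%, 12.2%, 11.1% and 11.2%.

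**Figure D1:**
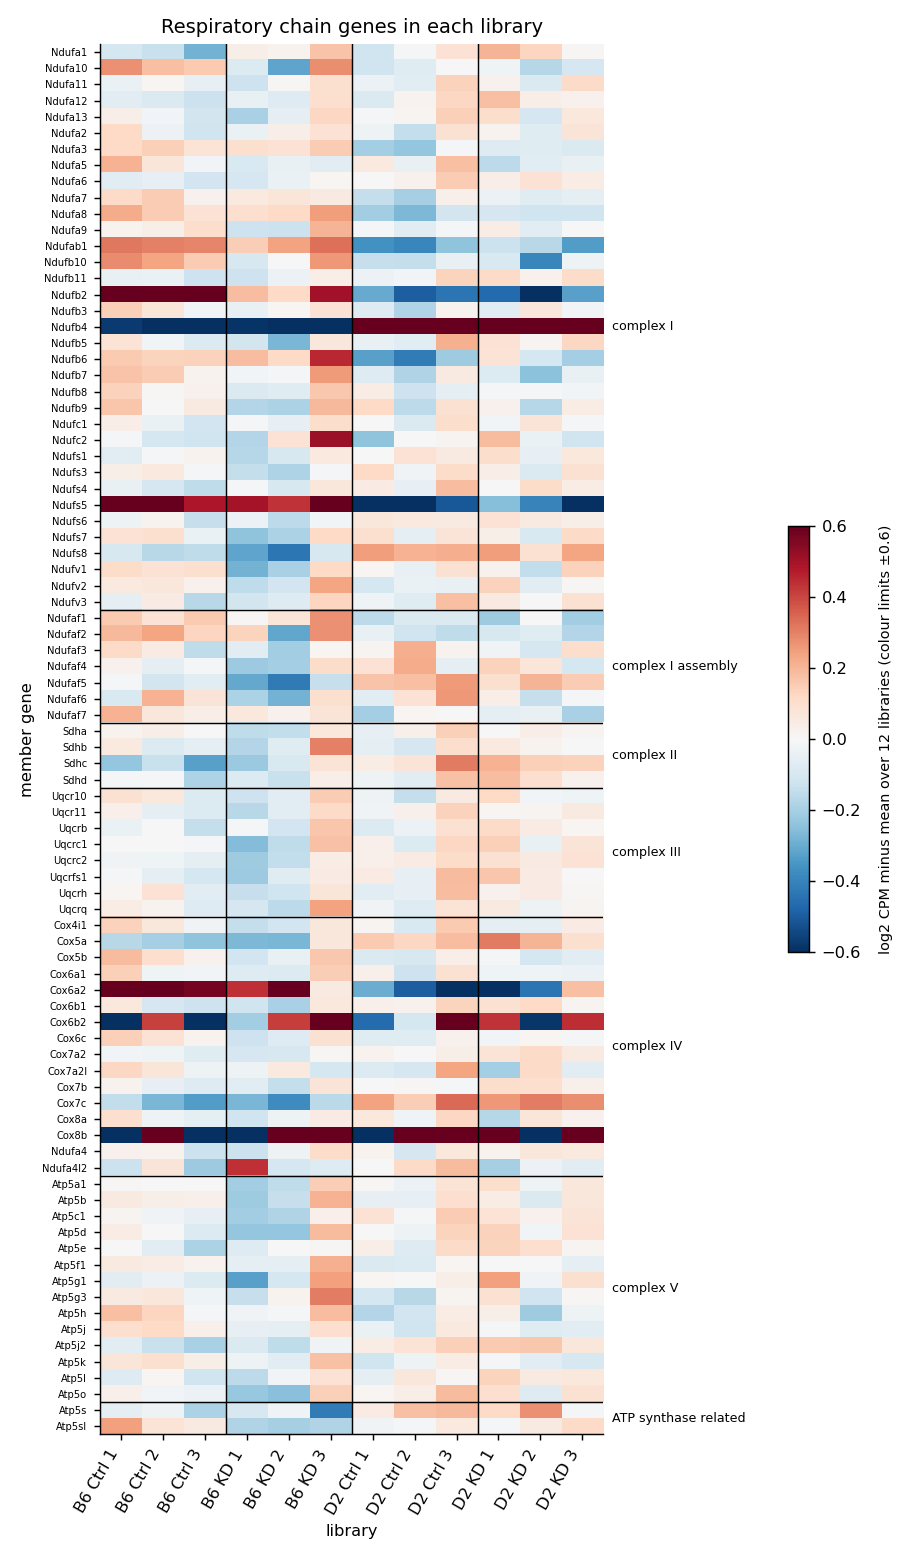
Level of 86 respiratory chain genes (rows, grouped by complex) in 12 libraries (columns). Colour is log2 CPM minus the mean of that gene over the libraries, limited to ±0.6; Atp5g2, at 0 in B6, and 1 other gene are left out. B6 KD 1 and 2 are mostly blue, and B6 KD 3 and D2 Ctrl 3 mostly red. Ndufb4, Ndufs5, Ndufb2 and Ndufab1 change colour between strains, and Cox8b and Cox6b2 follow individual libraries.

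The first question was whether knockdown of Hp1bp3 changed these genes in B6. None of the 88 was called (edgeR quasi-likelihood test, Benjamini-Hochberg adjusted p under 0.05), where 2.64% of all genes tested were called. Calls are those of this test on all 12 libraries unless another fit is named. At an unadjusted p under 0.05 there were 4 of 88, and 20.6% of all genes. DESeq2 called 2 of the 88 (10.6% of all genes in that fit) and limma-voom none (2.32%). The estimates were small: 58 genes were lower and 29 higher in KD, with a median log2 fold change of -0.037 against 0.0025 over all genes. Summed over the 88 genes, the level was 9839, 9640 and 9324 CPM in B6 Ctrl and 8594, 8803 and 10387 CPM in B6 KD. The KD libraries therefore lay on both sides of the Ctrl range, KD 1 and KD 2 below it and KD 3 above it.

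The contrast among the B6 KD libraries ran through the chain. In B6 KD 1, 13 of 87 genes were above their own mean over the 12 libraries, in B6 KD 2 it was 19, and in B6 KD 3 it was 74. In the B6 Ctrl libraries it was 55, 51 and 29. The D2 Ctrl libraries had 37, 29 and 72, so a wide spread also occurred among libraries with the scrambled hairpin. The D2 KD libraries had 58, 40 and 55. The share of all genes above their own mean was not counted. The complex V sum was 3045 and 3169 CPM in B6 KD 1 and 2 and 3874 in B6 KD 3, against 3417 to 3527 in B6 Ctrl. The complex III sum was 759, 788 and 928 CPM in the B6 KD libraries and 818 to 860 in B6 Ctrl. Hp1bp3 stood at 185, 182 and 259 CPM in the same B6 KD libraries. In them 10 microglial markers summed to 1108, 1073 and 670 CPM, against 458 to 530 in B6 Ctrl. Endothelial markers summed to 430, 389 and 354 CPM, against 302 to 377, and astrocyte markers to 8670, 6791 and 7398, against 6105 to 6856. Interneuron markers summed to 615, 584 and 901 CPM, against 744 to 838, and oligodendrocyte markers to 5483, 5083 and 4455, against 4265 to 6289. All 10 microglial markers had a higher estimate in B6 KD, with a median log2 fold change of 0.97. None of the 10 was called, where 2.64% of all genes were. At an unadjusted p under 0.05 edgeR gave 9 of the 10, and 20.6% of all genes. The part of these measures in the result was not tested. Without B6 KD 3, 4 of the 88 genes were called, all lower in KD (4.94% of all genes were called in that fit), and the median log2 fold change was -0.14 against -0.031 over all genes.

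**Figure D2:**
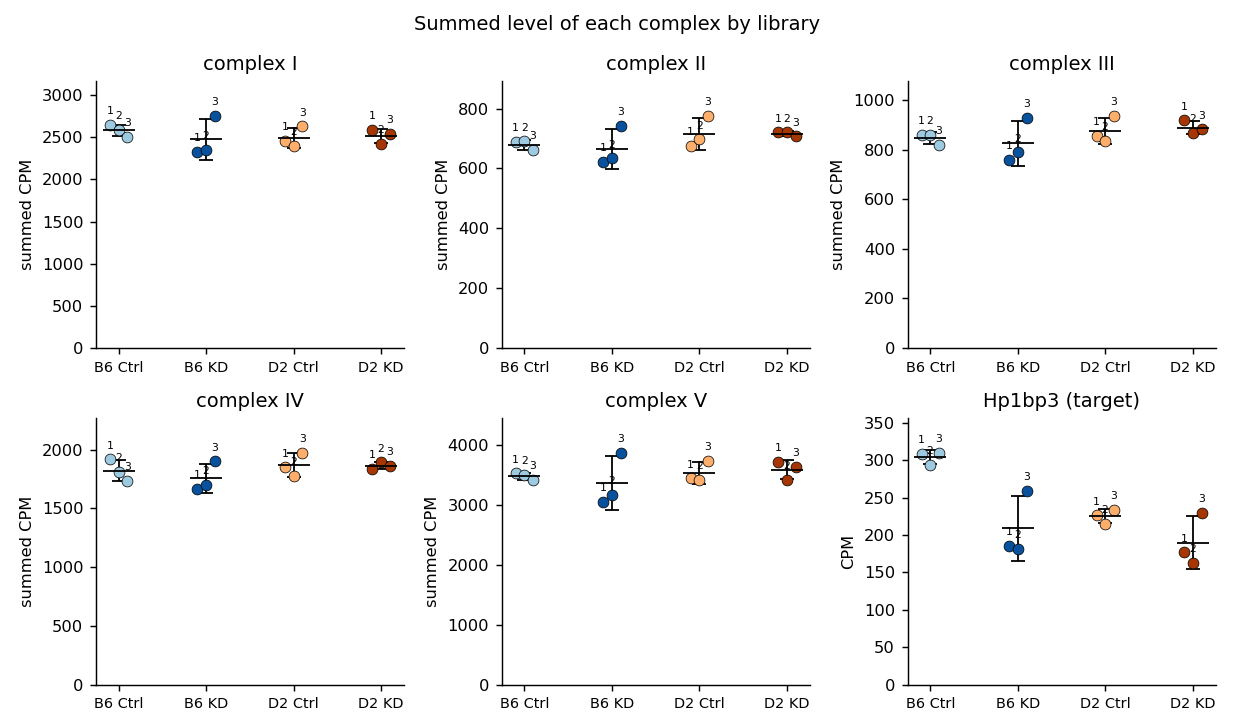
Summed CPM of the genes of complexes I to V, and CPM of Hp1bp3, in each library (points numbered by replicate), with the group mean and SD (n = 3). In B6 KD the sums of replicates 1 and 2 lie below those of replicate 3 in all 5 complexes, as does Hp1bp3; the 3 D2 KD libraries lie within the span of D2 Ctrl for complex V.

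By role, all 7 core subunits of complex I had a lower estimate in B6 KD, with a median log2 fold change of -0.14, and none was called. Core subunits carry the flavin and iron-sulfur clusters and the quinone site. Ndufv1, which binds NADH, was at 142, 140 and 141 CPM in B6 Ctrl and 108, 115 and 143 CPM in B6 KD (log2 fold change -0.21, adjusted p = 0.31). Ndufs1, the largest core subunit, was at 153 to 162 CPM in Ctrl and 142 to 166 in KD. The groups overlapped for both genes. The 29 accessory subunits had a median of -0.020, with 12 higher and 17 lower. Accessory subunits surround the core and take part in its assembly and stability.

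The catalytic subunits of the other complexes overlapped between KD and Ctrl in B6. Sdha, the flavoprotein of complex II, was at 429 to 441 CPM in B6 Ctrl and 386, 388 and 449 in B6 KD. Sdhb, its iron-sulfur subunit, was at 90.04 to 99.0 CPM in Ctrl and 84.2 to 117 in KD. Uqcrc1, a core protein of complex III, was at 176 to 177 CPM in Ctrl and 147, 159 and 199 in KD, and Uqcrfs1, the Rieske protein, at 98.1 to 105 in Ctrl and 90.8 to 109 in KD. For Sdha and Uqcrc1, as for the sums, KD 3 stood above the Ctrl libraries and KD 1 and 2 below. Atp5b, the catalytic beta subunit, was at 1066 to 1085 CPM in Ctrl and 900, 948 and 1208 in KD, and Atp5a1, the alpha subunit, at 825 to 828 in Ctrl and 711, 742 and 912 in KD. Their log2 fold changes were -0.076 and -0.067.

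The 4 genes with the smallest p in B6 were Atp5sl, Ndufb2, Ndufa1 and Ndufaf5, and edgeR called none of them with all 12 libraries. DESeq2 called Atp5sl and Ndufb2, and without B6 KD 3 edgeR called Atp5sl, Ndufb2 and Ndufaf5. Atp5sl, known as an assembly factor of the complex I membrane arm, was at 35.1, 31.3 and 30.7 CPM in B6 Ctrl and 26.1, 25.8 and 26.1 in B6 KD. All KD libraries lay below all Ctrl libraries, KD 3 included (log2 fold change -0.32 ± 0.075, adjusted p = 0.051). DESeq2 called it in B6 with adjusted p = 0.0012, in a fit that called 10.6% of all genes, and the newer quasi-likelihood method of edgeR called it with adjusted p = 0.047, in a fit that called 3.86%. With RLE normalization edgeR called it with adjusted p = 0.044, in a fit that called 2.97%. In D2, Atp5sl was at 29.1 to 30.8 CPM in Ctrl and 29.4 to 32.04 in KD. The interaction estimate, the D2 minus the B6 effect, was 0.36 ± 0.11 for Atp5sl and was not called (edgeR adjusted p = 0.82).

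Ndufb2, an accessory subunit of the membrane arm, was at 57.5, 55.7 and 55.4 CPM in B6 Ctrl and 39.5, 37.8 and 49.3 in B6 KD (log2 fold change -0.41 ± 0.14, edgeR adjusted p = 0.12). DESeq2 called it lower with adjusted p = 0.038, and edgeR without B6 KD 3 with adjusted p = 0.048. Its values in B6 held decimals, a mark of reads divided between places, and 1.65% of its 75-base windows also occurred in another gene. Ndufa1, a small membrane subunit encoded on the X chromosome, was at 36.4 to 41.0 CPM in Ctrl and 44.9 to 49.7 in KD, so that all KD libraries were higher (log2 fold change 0.25 ± 0.086, adjusted p = 0.13). Ndufaf5, which hydroxylates a core subunit during assembly, was at 21.1 to 22.6 CPM in Ctrl and 17.0 to 20.8 in KD (-0.22 ± 0.086, adjusted p = 0.18). The estimates of all 7 Nduf assembly factors were below 0 in B6 and in D2, with medians of -0.090 and -0.051. Ndufa5, an accessory subunit of the matrix arm, was lower in every KD library of B6 as well, at 52.5 to 54.2 CPM against 55.3 to 64.6. Over the 88 genes, groups did not overlap in B6 for 5, Atp5sl, Ndufb2, Ndufaf5 and Ndufa5 lower and Ndufa1 higher, where 27.8% of all genes tested did not overlap (14.0% lower and 13.9% higher in KD).

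In D2 none of the 88 genes was called for KD against Ctrl, and of all genes tested 0.0% were called. At an unadjusted p under 0.05 edgeR gave 1 of the 88, and 2.85% of all genes. The sum over the chain was 9465, 9319 and 10242 CPM in D2 Ctrl and 9960, 9504 and 9812 in D2 KD, so the KD libraries lay within the Ctrl range. The median log2 fold change was 0.013 against 0.0041 over all genes, with 51 genes higher and 37 lower. Without the library labelled D2 KD 3 none of the 88 was called (0.00623% of all genes) and the median was 0.014. Ndufb6, an accessory subunit of the membrane arm, had the smallest p: it was at 31.5 to 36.3 CPM in Ctrl and 36.6 to 44.6 in KD (log2 fold change 0.25 ± 0.11, edgeR adjusted p = 1.0). Ndufa5 was at 54.2 to 63.3 CPM in D2 Ctrl and 50.1 to 54.2 in D2 KD, with a log2 fold change of -0.15 ± 0.081, and its groups overlapped narrowly. Ndufab1, the mitochondrial acyl carrier protein, was at 41.0 to 45.5 CPM in Ctrl and 42.7 to 49.2 in KD. The groups did not overlap for 4 of the 88 genes, and for 5.96% of all genes tested (2.93% higher and 3.03% lower in KD). All KD values of Ndufb6, Cox7a2 and Cox7b were above those of Ctrl and all of Ndufa4l2 below, Cox7b being named after its values were seen.

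**Figure D3:**
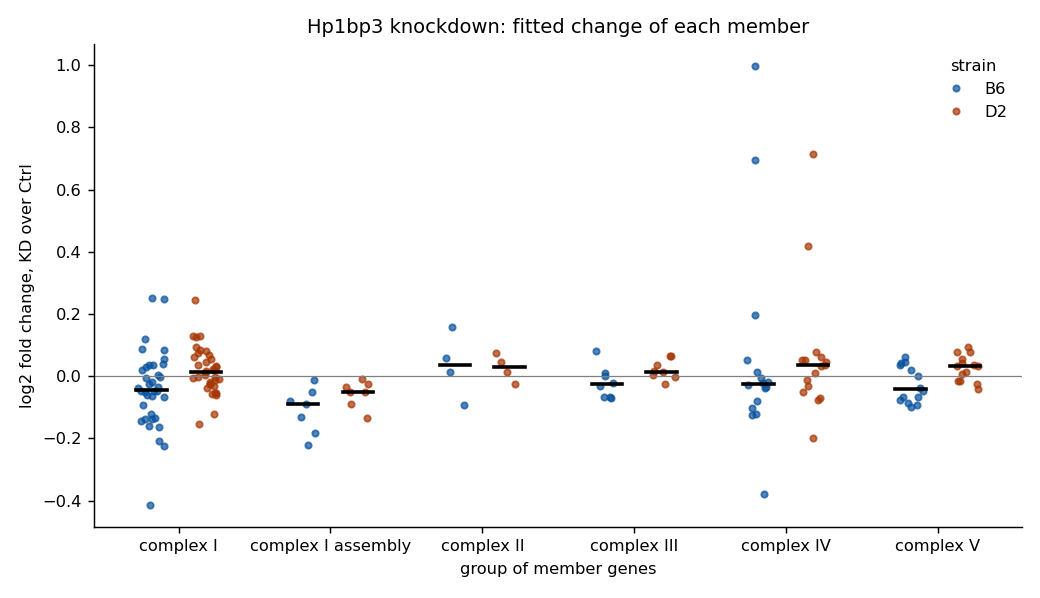
Fitted log2 fold change of KD over Ctrl for each gene (points) in B6 (blue) and D2 (brown), by complex, with the median as a black bar. Atp5g2 and the 2 genes related to ATP synthase are left out. The medians lie between -0.090 and 0.035, and the points farthest above 0 are low-count isoforms of complex IV.

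Averaged over the strains, 0 of the 88 genes were called (edgeR; 0.0% of all genes), and 6 had an unadjusted p under 0.05, against 19.2% of all genes. Without B6 KD 3 and without the library labelled D2 KD 3, 2.5% and 4.97% of all genes were called for this average, and again none of the 88. Those with the smallest p were Ndufa1 (log2 fold change 0.19 ± 0.061, adjusted p = 0.14), Ndufb2 (-0.27 ± 0.097, adjusted p = 0.17), Ndufa5 (-0.16 ± 0.057, adjusted p = 0.18) and Atp5sl (-0.14 ± 0.053, adjusted p = 0.20). For the interaction, 0 of the 88 were called (edgeR; 0.0% of all genes), 1 had an unadjusted p under 0.05, against 5.91% of all genes, and 64 had a positive estimate. The median was 0.052 against -0.0017 over all genes. Without B6 KD 3 it was 0.14 against 0.016, with 81 positive estimates and again no call. DESeq2 called none of the 88 in D2 (0.00631% of all genes), in the average (7.83% of all genes) or in the interaction (0.0694%). Limma-voom also called none of the 88, with 0.0% of all genes called in each of these comparisons.

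Members were called between the strains. In Ctrl libraries, 14 of the 88 genes (15.9%) were called between D2 and B6, where 14.0% of all genes were. In KD libraries it was 11 (12.5%), where 15.0% of all genes were called. The shares were near those of all genes. Of the 14, 7 were higher and 7 lower in D2, where 5.23% of all genes were called higher and 8.75% lower. Of the 11, 7 were higher and 4 lower, where 5.92% and 9.05% of all genes were. Both comparisons called 10 genes, each in the same direction in the separate sets of libraries. The share of all genes called in both was not counted. Both comparisons rest on reads aligned to the genome of each strain, so a difference between those references can recur in both. Over all 88 genes the median log2 fold change of D2 over B6 was 0.029 in Ctrl, against 0.023 for all genes, and 0.061 in KD, against -0.0040. Without B6 KD 3, 19 of the 88 genes were called in KD, 16 higher and 3 lower, where 16.1% of all genes were called, 6.85% higher and 9.29% lower. DESeq2 called 18 of the 88 in Ctrl libraries (16.9% of all genes) and 17 in KD libraries (19.2% of all genes).

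The reads of each mouse had been aligned to the genome of its own strain, so a difference between strains and a difference between their references cannot be told apart. A gene's expected counts hold decimals where reads were divided between places. Such decimals occurred in 30 of the 88 genes, 22 in B6 libraries alone and 8 in both strains; among all genes tested, 18.6% had them in B6 alone, 1.88% in D2 alone and 15.8% in both. Of the 15 genes called between strains in either treatment, 8 had decimals and 7 did not. In Ctrl libraries 10.3% of the 58 members with whole counts were called and 27.3% of the 22 with decimals in B6 alone; for all genes these shares were 9.75% and 21.3%.

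**Figure D4:**
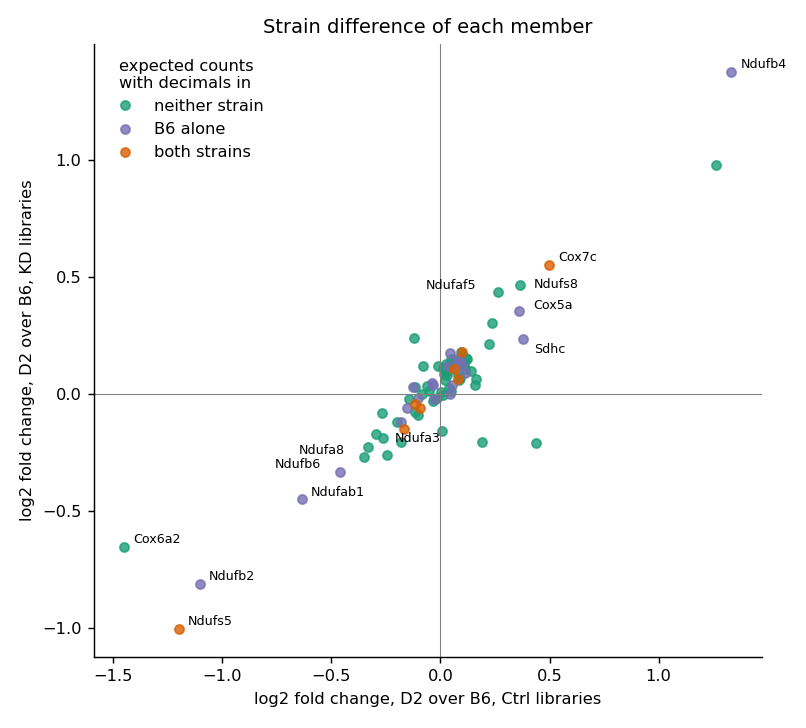
Fitted log2 fold change of D2 over B6 in Ctrl libraries (horizontal) and in KD libraries (vertical) for 86 genes, coloured by whether their expected counts hold decimals; genes called in either are named. Most genes lie within 0.3 of 0 on both axes; Ndufb4 is highest in D2, and Ndufs5, Ndufb2, Ndufab1 and Cox6a2 are lowest. The unnamed point far to the upper right is Cox8b.

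Among genes detected in both strains with whole counts in all 12 libraries, those called in both treatments included Ndufs8 and Ndufa8. Ndufs8, a core subunit that carries iron-sulfur clusters, was at 38.4 to 40.2 CPM in B6 Ctrl and 49.6 to 51.1 in D2 Ctrl, and among KD libraries at 31.9 to 40.3 in B6 and 45.7 to 51.2 in D2. D2 was higher by 1.29-fold in Ctrl (adjusted p = 0.018) and by 1.38-fold in KD (adjusted p = 0.0040), with no overlap. The Ctrl call of Ndufs8 was lost without B6 Ctrl 2, B6 Ctrl 3 or D2 Ctrl 1 (adjusted p = 0.065 to 0.078), and its KD call was kept when any 1 library was left out.

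Ndufa8, an intermembrane-space accessory subunit (chr2:36036326-36049406), went the other way. It was at 82.0, 77.9 and 74.5 CPM in B6 Ctrl and 60.7, 58.3 and 65.0 in D2 Ctrl, and among KD libraries at 75.1, 76.3 and 83.4 in B6 and 65.5, 64.5 and 64.6 in D2. The strains did not overlap, and D2 was at 0.785 of B6 in Ctrl (adjusted p = 0.0067) and at 0.828 in KD (adjusted p = 0.027). The KD call of Ndufa8 was lost when any of 8 libraries was left out (adjusted p = 0.054 to 0.084), among them each of the KD libraries, and the Ctrl call was never lost this way. Of other core subunits of complex I, Ndufs1 and Ndufv1 had log2 fold changes of 0.064 and -0.078 in Ctrl and 0.11 and 0.12 in KD, none of them called. The sum of the 7 core subunits was 762 ± 8.10 CPM in B6 Ctrl and 815 ± 29.8 in D2 Ctrl (SD, n = 3). That of the 29 accessory subunits was 1817 ± 64.4 and 1678 ± 89.3, with Ndufs5, whose copy is treated below, included. Neither sum was tested, and either can rest on single genes. By estimate, 4 core subunits were higher and 3 lower in D2 Ctrl (median log2 fold change 0.044). Among the accessory subunits 13 were higher and 16 lower (median -0.025).

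Atp5g2 had no count in any of the 6 B6 libraries. In D2 it was at 71.9, 73.4 and 84.4 CPM in Ctrl and 83.1, 76.7 and 76.1 in KD, all in whole counts. Set against 3 counts per library, the level in D2 was at least 813-fold higher in Ctrl and at least 807-fold higher in KD. The gene lies at chr15:102662864-102672352 in GENCODE M21, which is not known to be the annotation used for the counts. The cause of the missing counts in B6 was not tested. The other genes for the c subunit did not stand apart: Atp5g1 was at 95.2 to 98.3 CPM in B6 Ctrl and 100 to 103 in D2 Ctrl (log2 fold change 0.076), and Atp5g3 at 185 to 198 in B6 Ctrl and 168 to 191 in D2 Ctrl (-0.12), neither being called. The sum of the 3 genes was 290 ± 8.39 (Ctrl) and 296 ± 51.6 (KD) CPM for B6, and 356 ± 19.6 (Ctrl) and 376 ± 27.04 (KD) for D2 (SD, n = 3).

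Ndufs5, whose coding sequence is shown above beside BC002163, was at 74.2, 75.7 and 67.2 CPM in B6 Ctrl and 29.5, 31.3 and 33.8 in D2 Ctrl. In KD it was at 67.8, 64.9 and 74.5 CPM in B6 and 40.3, 36.3 and 26.8 in D2. It was called lower in D2, at 0.436 of B6 in Ctrl (adjusted p = 9.1e-05) and 0.499 in KD (adjusted p = 0.00034). BC002163 was at 0.0 to 0.045 CPM in the B6 libraries and at 28.8 to 44.2 in the D2 libraries. Added together, the gene and its copy were at 64.9 to 75.7 CPM in B6 and 68.0 to 75.8 in D2. The strains overlapped in the sum: 72.4 ± 4.48 in B6 Ctrl against 71.0 ± 4.23 in D2 Ctrl, and 69.1 ± 4.94 in B6 KD against 69.9 ± 0.963 in D2 KD (SD, n = 3). A fit on summed copies gave log2 fold changes of -0.028 in Ctrl (edgeR adjusted p = 0.90) and 0.016 in KD (adjusted p = 0.94).

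**Figure D5:**
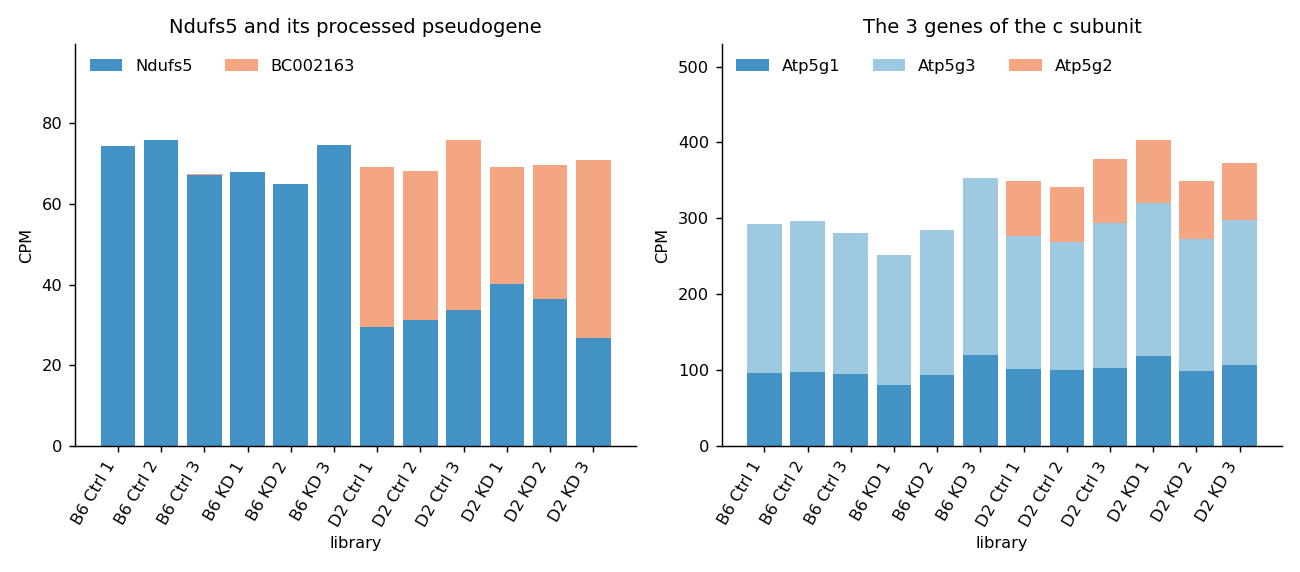
CPM of Ndufs5 and BC002163 (left) and of the 3 genes for the c subunit of ATP synthase (right), stacked, in each of the 12 libraries. BC002163 is near 0 in B6, and the height of the left stack overlaps between strains; Atp5g2 appears in D2 libraries alone.

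Ndufb4 was higher in D2 than in B6, at 18.05 to 19.96 CPM in B6 Ctrl and 45.7 to 48.1 in D2 Ctrl. Among KD libraries it was at 16.5 to 19.8 CPM in B6 and 47.2 to 49.10 in D2. The difference was 2.52-fold in Ctrl (adjusted p = 9.2e-07) and 2.60-fold in KD (adjusted p = 7.6e-07). Its counts held decimals in all 6 B6 libraries and in no D2 library. Cox7c, a small transmembrane subunit of complex IV, was at 74.3 to 84.6 CPM in B6 Ctrl and 104 to 119 in D2 Ctrl, 1.41-fold higher in D2 (adjusted p = 0.0016). In KD the difference was 1.47-fold (adjusted p = 0.00078). Decimals occurred in both strains, and 25.0% of its 75-base windows are shared, with the processed pseudogenes Gm10012 and Gm12338. Adding Gm10012, which stayed at or below 0.286 CPM, gave 79.0 ± 5.28 CPM in B6 Ctrl and 111 ± 7.33 in D2 Ctrl (SD, n = 3).

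Of the genes lower in D2, Ndufb2 was at 55.4 to 57.5 CPM in B6 Ctrl and 24.7 to 28.2 in D2 Ctrl, and among KD libraries at 37.8 to 49.3 in B6 and 19.3 to 27.7 in D2. D2 was at 0.466 of B6 in Ctrl (adjusted p = 0.00020) and 0.570 in KD (adjusted p = 0.0018). Ndufab1 was at 65.9 to 67.1 CPM in B6 Ctrl and 41.0 to 45.5 in D2 Ctrl, 0.644 of B6 (adjusted p = 0.00020), and at 0.732 of B6 in KD (adjusted p = 0.0023). Ndufb6 was at 46.2 to 47.0 CPM in B6 Ctrl and 31.5 to 36.3 in D2 Ctrl, and its call was made in Ctrl libraries (log2 fold change -0.46 ± 0.11, adjusted p = 0.012) and not in KD (-0.33, adjusted p = 0.057). Without D2 Ctrl 2 the Ctrl call of Ndufb6 was lost (adjusted p = 0.055). These 3 genes had decimals in all B6 libraries and whole counts in D2. Ndufa3, a membrane accessory subunit outside the rule for named genes, had whole counts and was called in Ctrl with a log2 fold change of -0.26 ± 0.071; the call was lost in 5 of the 12 fits without 1 library (without B6 Ctrl 1, 2 or 3 or D2 Ctrl 1 or 2).

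In complexes II and IV, Sdhc, a membrane anchor of complex II, was at 69.4 to 79.3 CPM in B6 Ctrl and 89.8 to 108 in D2 Ctrl (1.30-fold, adjusted p = 0.025), and was not called in KD (adjusted p = 0.16). Its Ctrl call was lost without B6 Ctrl 1, B6 Ctrl 3 or D2 Ctrl 3 (adjusted p = 0.066 to 0.091). Cox5a, a nuclear-encoded subunit on the matrix side of complex IV, was at 91.0 to 95.9 CPM in B6 Ctrl and 117 to 122 in D2 Ctrl (1.28-fold, adjusted p = 0.032), with the same fold in KD (adjusted p = 0.032). The Ctrl call of Cox5a was lost without any of the 6 Ctrl libraries, and the KD call without B6 KD 1, B6 KD 2 or the libraries labelled D2 KD 1 or D2 KD 2 (adjusted p up to 0.11). Decimals occurred in B6 for both genes. Ndufaf5, with whole counts, was called in KD libraries, at 17.0 to 20.8 CPM in B6 and 24.4 to 26.3 in D2 (1.35-fold, adjusted p = 0.0053), and not in Ctrl (adjusted p = 0.071). With all 12 libraries, edgeR called none of the 8 genes of complex III in either comparison. In KD libraries DESeq2 called Uqcrc2, the other core protein, higher in D2 (log2 fold change 0.20, adjusted p = 0.022), and edgeR without B6 KD 3 called Uqcrc1 and Uqcrc2 higher (adjusted p = 0.049 and 0.014). Cox4i1, the regulatory subunit that binds nucleotides in complex IV, was at 293 to 327 CPM in B6 Ctrl and 278 to 331 in D2 Ctrl.

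Tissue isoforms of complex IV were far below the common forms. Cox6a1 was at 273 CPM per kb of transcript and Cox6a2, the heart and muscle form, at 2.73. Cox6b1 was at 220 CPM per kb and Cox6b2, a form known from testis, at 4.73, and Cox8a was at 438 and Cox8b, a heart and muscle form, at 4.98. Ndufa4, a subunit of complex IV despite its name, was at 221 CPM per kb and its paralog Ndufa4l2 at 2.03. Cox7a2 was at 173 and Cox7a2l, a supercomplex assembly factor, at 102 CPM per kb. With all 12 libraries, edgeR called none of the common forms Cox6a1, Cox6b1, Cox7a2, Cox8a and Ndufa4, nor Cox7a2l, in any of the 6 comparisons. Cox7a2 was called higher in D2 among KD libraries by DESeq2 (log2 fold change 0.16, adjusted p = 0.0052) and by edgeR without B6 KD 3 (0.20, adjusted p = 0.049).

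Cox6a2 was the isoform called between strains, in Ctrl libraries. It was at 3.02, 2.98 and 2.49 CPM in B6 Ctrl and 1.36, 1.19 and 0.56 in D2 Ctrl, without overlap (log2 fold change -1.45 ± 0.34, edgeR adjusted p = 0.015; without B6 Ctrl 1, adjusted p = 0.055). In KD libraries it was at 2.27, 2.54 and 1.74 CPM in B6 and 1.01, 1.24 and 1.90 in D2, with overlap and no call (-0.65, adjusted p = 0.25). The difference between these estimates, which is the interaction, was 0.80 ± 0.47 and was not called (edgeR adjusted p = 0.90).

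Cox8b and Cox6b2 varied between libraries of the same group. Cox8b was at 0.11, 2.10 and 0.17 CPM in B6 Ctrl and at 0.057, 1.75 and 2.75 CPM in B6 KD. In D2 it was at 0.22, 2.49 and 2.85 CPM in Ctrl and at 4.05, 0.11 and 4.87 CPM in KD. The 7 libraries at 1.75 or above are the 7 in which the choroid plexus markers summed to 2881 CPM or more. Cox6b2 was at 1.16, 3.40 and 1.65 CPM in B6 Ctrl and at 2.21, 3.42 and 4.33 CPM in B6 KD. In D2 it was at 1.86, 2.38 and 4.11 CPM in Ctrl and at 3.46, 1.71 and 3.48 CPM in KD. Its 7 highest values fell in the same 7 libraries. Without a covariate edgeR called neither gene in any comparison. With the mean log2 level of the choroid plexus markers as a covariate, Cox8b was called higher in D2 among KD libraries (log2 fold change 1.09 ± 0.26, edgeR adjusted p = 0.016), in a fit that called 14.9% of all genes. Its estimate there without the covariate was 0.98 ± 1.38 (adjusted p = 0.74). The positive KD estimates of these isoforms in B6, 1.00 for Cox8b and 0.69 for Cox6b2, come from groups in which 1 of 3 Ctrl libraries and 2 of 3 KD libraries belong to those 7.

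The wider mitochondrial programme was read from lists outside the chain, in the same edgeR fit. For KD that fit reached 2.64% of all genes in B6 and 0.0% in D2. With shares this low, 0 calls for KD in a short list do not set that list apart. The strain comparison in Ctrl reached 14.0% of all genes, 5.23% upward and 8.75% downward in D2. Of 41 assembly factors, 0 were called for KD in B6, with a median log2 fold change of -0.056, and none was called for KD in D2. Between strains in Ctrl, 3 were higher and 8 lower in D2, and among the factors that handle copper for complex IV, Cox17 and Cox19 were lower (log2 fold changes -0.37 and -0.84) and Cox11 was higher (0.64). Of 21 regulators of mitochondrial biogenesis, 0 were called for KD in B6 (median -0.065), and 3 were called between strains in Ctrl: Ppara, a nuclear receptor for fatty acids, was higher in D2 (log2 fold change 1.98), and Polg2 (-0.70) and Slirp (-0.47) were lower. Of 15 genes for electron carriers, 0 were called for KD in B6, while 7 were called between strains in Ctrl. Cycs (cytochrome c, log2 fold change 0.93) and Coq5 (0.35) were higher in D2, and 5 other genes of coenzyme Q synthesis were lower, Coq2 (-0.66), Coq6 (-0.37), Pdss1 (-1.19), Pdss2 (-0.49) and Adck3 (-0.49).

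For KD in B6 at an unadjusted p under 0.05, edgeR gave 4 of the 41 assembly factors, 2 of the 21 regulators, 2 of the 15 carrier genes, 3 of 18 citric acid cycle genes, 2 of 22 import and carrier genes, 9 of 76 mitochondrial and 10 of 88 cytosolic ribosomal genes, where 20.6% of all genes passed. Of 18 genes of the citric acid cycle, 0 were called for KD in either strain (median -0.025 in B6 and 0.022 in D2). Of 22 genes for import and carriers, 0 were called for KD, and Mpc2, of the pyruvate carrier, and Timm44, of the import motor, were lower in D2 in both strain comparisons (log2 fold changes -0.38 and -0.43 in Ctrl). Of 76 genes of the mitochondrial ribosome, 0 were called for KD in B6 or D2 (medians -0.036 and 0.030). Between strains in Ctrl 16 of the 76 were called, 3 higher and 13 lower in D2. Among all genes 14.0% were called there, 5.23% higher and 8.75% lower, and 2.64% were called for KD in B6. Of 17 glycolytic genes, 1, the hexokinase gene Hk2, was called higher in B6 KD (log2 fold change 1.17 ± 0.26, edgeR adjusted p = 0.045). With library total or the choroid plexus marker level as a covariate, edgeR called no gene for KD in B6, so this call was lost. The same held without B6 Ctrl 1, B6 Ctrl 3, B6 KD 1, B6 KD 2 or D2 Ctrl 1. Between strains in Ctrl, 0 of the 17 glycolytic genes were called. For comparison, 33 of 88 rows with cytosolic ribosomal names were called between strains in Ctrl, 26 higher and 7 lower in D2, and 0 for KD in B6. Some of the 33 carry pseudogene symbols.

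Of 8 related lists, 5 had sums in B6 KD 1 and 2 below the B6 Ctrl libraries and in B6 KD 3 above them: citric acid cycle, glycolysis, import and carriers, electron carriers and the mitochondrial ribosome. The citric acid cycle sum was 2770, 2830 and 3408 CPM in B6 KD 1, 2 and 3, against 3089 to 3140 in B6 Ctrl. The glycolytic sum was 9322, 9047 and 11619 CPM, against 10231 to 10829, and the import and carrier sum 3421, 3404 and 4277, against 3741 to 3881. The other lists differed: the assembly factor sum was 1056, 1036 and 1125 CPM against 1089 to 1132, with KD 3 inside the Ctrl range, and the sum of the biogenesis regulators was 552, 581 and 576 CPM against 575 to 612, with KD 2 and 3 inside it. The cytosolic ribosome sum was 11504, 11390 and 12177 CPM against 10917 to 12133, with KD 1 and 2 inside it. The neuronal marker sum was 10680, 9208 and 11001 CPM in the same libraries and 11049 to 12234 in B6 Ctrl.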

How the data were processed

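The authors aligned paired 75-base reads to a genome matched to the strain of the mouse and quantified genes with RSEM 1.2.12 and Bowtie2 2.2.0, per the submitters' processing notes. The deposited expected counts are gene-level RSEM output without normalization. Most samples were sequenced in 2 runs that were joined, and the labels do not say which were not. The annotation is not given in the sources used here. Expected counts were rounded, and 27 symbols turned into dates were restored from identifiers. Replicates were numbered in accession order and pair nothing.

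Low genes were removed with filterByExpr, and the remaining 15853 genes were tested with the edgeR 4.0.16 quasi-likelihood F-test (TMM, robust, R 4.3.3) with a mean for each of 4 groups. The 6 comparisons were KD against Ctrl in each strain and averaged, their interaction, and D2 against B6 in each treatment. Benjamini-Hochberg adjusted p-values under 0.05 over all genes were called. Standard errors are the log2 fold change over the square root of F, so approximate. DESeq2 1.42.0 and limma-voom (limma 3.58.1) were alternatives. The fits were first checked on data with known changes. Values within 0.001 of an integer were taken as whole. Shared windows are 75-base stretches of a member's longest transcript found in transcripts of another gene of GENCODE M21. Kinase genes named Rps6k were kept out of the ribosomal list, and Atp5g2, at 0 in B6, out of fitted folds. Ribosomal rows with pseudogene symbols were kept in that list.

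Members named are, per comparison, those called (the 5 largest in each direction if over 10), the 4 smallest p where under 4 were called, and fixed catalytic subunits and isoforms. Members and lists were chosen with earlier results of these data known. The authors' normalized table was not used here, and results of 1 member and 1 gene of another list are not reported here. With 18.2 M to 39.4 M counts per library, the spread between mice limits precision for all but the low isoforms.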

Additional observations from a re-analysis of the deposited data

How the results depend on the processing

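For KD in B6, where no member was called, DESeq2 called 2 (Atp5sl and Ndufb2; 10.6% of all genes), the newer quasi-likelihood method 1 (3.86%) and RLE normalization 1 (2.97%), and leaving out single libraries gave 0 to 4, with 4 without B6 KD 3 (Atp5sl, Ndufa10, Ndufaf5 and Ndufb2; Ndufa10, log2 fold change -0.43, falls outside the rule for named genes). For KD in B6, 0 of all genes were called with library total or choroid score as covariate. The same held without B6 Ctrl 1, B6 Ctrl 3, B6 KD 1, B6 KD 2 or D2 Ctrl 1. In those fits 0 called members is also the result for every other gene. Between strains in KD libraries, DESeq2 called 17 members in place of 11 (19.2% of all genes in place of 15.0%). Leaving out single libraries gave 9 to 19 called members there, with 19 without B6 KD 3 (16.1% of all genes). Between strains in Ctrl libraries the count was 14, with 13 to 18 under the other full fits and 10 to 17 without single libraries. KD in D2, the averaged KD effect and the interaction gave 0 called members in all 21 fits, where the averaged effect called 7.83% of all genes with DESeq2, 4.97% without D2 KD 3 and 2.5% without B6 KD 3. Adding pseudogene copies, a setting chosen after the data were seen, reversed Ndufs5 between strains in KD to 0.016 and ended its call in both treatments. Sdhc lost its call in Ctrl with library total as covariate (adjusted p = 0.068) and with the choroid score as covariate (adjusted p = 0.052). Cox5a lost its Ctrl call with the choroid score and Ndufa3 with the library total. Without single libraries, Ndufa8 lost its call in KD in 8 of 12 fits and Cox5a in 4, and in Ctrl Cox5a lost it in 6, Ndufa3 in 5, Sdhc and Ndufs8 in 3 each, and Cox6a2 and Ndufb6 in 1 each, as given with those genes. The cause was not tested. Ndufb4, Cox7c, Ndufb2 and Ndufab1 in both strain comparisons kept direction and call in all 20 alternatives. These genes had decimals in all B6 libraries, and none of the fits changed the alignment or its references. The only copies added in the summed fit were BC002163 and Gm10012. The alternatives therefore could not test a difference between the references for these genes. No paired analysis was possible because the labels give no replicate numbers. Precision rests on 3 mice per group, and the counts of Cox8b, Cox6a2 and Ndufa4l2 are low.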
